A study of Mus musculus with 10 samples.

Results

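Cyclins are regulatory proteins that accumulate and are destroyed as a cell passes through its division cycle, and cyclin-dependent kinases (CDKs) are the enzymes they switch on. The 10 genes described here, of 40690 in the count table, are the D-type cyclins Ccnd1, Ccnd2 and Ccnd3, the E-type cyclins Ccne1 and Ccne2, cyclin A2 (Ccna2), the B-type cyclins Ccnb1 and Ccnb2, and the kinases Cdk1 and Cdk2. They were chosen by name, with earlier results of these data known, and all 10 were found in the table. Transcripts were measured in heart ventricles of male C57BL/6 mice aged 10 weeks, by sequencing polyadenylated RNA with libraries that do not keep strand. The 5 sham mice had undergone the sham operation for ischemia-reperfusion, which is the surgical control for closing and reopening a coronary artery, and the 5 naive mice had no operation. No transgene or drug is named for either group, and how long after the operation hearts were collected is not stated in the sources used here. The comparison asks which of these transcripts differ in the ventricle after the control surgery.

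In textbook order, D-type cyclins respond to growth factors and activate Cdk4 and Cdk6 in the G1 phase, which starts the inactivation of the retinoblastoma protein and frees E2F transcription factors. E-type cyclins with Cdk2 then drive entry into DNA synthesis, cyclin A2 acts through S phase and G2, and the B-type cyclins with Cdk1 drive mitosis. Most heart muscle cells of an adult mouse have left the cycle, whereas fibroblasts, endothelial cells and immune cells of the heart can divide. The RNA of the S phase and mitotic members is known to be made mainly in dividing cells, whereas D-type cyclins and Cdk2 are also transcribed in resting cells.

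Total counts ran from 10654107 to 21537135 in sham libraries and from 9683181 to 17577906 in naive libraries. On total counts, before the scaling used for all other CPM values, 3 counts stood at 0.139 CPM (reads per 1e6 counted reads) for sham 4. Sham 4 had the highest total. For naive 1, with the lowest total, 3 counts stood at 0.310 CPM. Sham 4 stood apart within its group, with 24214 genes detected against 20842 to 22570 in the other sham libraries and 20235 to 20973 in naive libraries. Its chi-square per degree of freedom against other sham libraries was 68.2 to 86.9, against 10.2 to 22.4 among those and 10.1 to 65.0 among naive libraries. Without sham 4 the log2 fold changes were 2.40 for Ccna2, 2.34 for Ccnb2, 2.41 for Cdk1 and -1.67 for Ccne2, all past the threshold, and Ccne1 stood at 0.65 and did not pass (edgeR adjusted p = 0.0509). Every heart muscle marker listed was detected, with Myh6 at 30509 CPM in sham and 38652 CPM in naive libraries. Of 13622 genes tested, 17.2% were called higher and 15.5% lower in sham than in naive libraries, 32.7% in all (quasi-likelihood test of edgeR, threshold of 0.05 on the Benjamini-Hochberg adjusted p). Over all tested genes, log2 fold changes had a median of -0.05, and 0.22 when libraries were scaled by size alone, so small changes are read against that shift.

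The promoters are shown first. Those of Cdk1 and Ccnb2, both higher in sham libraries, hold elements known from cell cycle genes that peak in G2 and mitosis. Those elements are the cell cycle genes homology region (CHR, searched as TTTGAA), which the MuvB complex reads, and the CCAAT box (searched as CCAAT), which the factor NF-Y reads. Sites for E2F were searched as TTTCCCGC, TTTGGCGC or TTTCGCGC. All were searched on both strands in windows from 250 bases before to 50 bases after the RefSeq start on GRCm38.p6, which were at hand for 6 of the 10 members. Each line runs 5′ to 3′ on the strand of the gene, from 250 bases before to 12 bases after the start, with matches in capitals. The windows lie at chr10:69352901-69353162 (Cdk1), chr9:70421543-70421804 (Ccnb2), chr13:100786475-100786736 (Ccnb1) and chr10:128705040-128705301 (Cdk2), all on the minus strand.
Cdk1: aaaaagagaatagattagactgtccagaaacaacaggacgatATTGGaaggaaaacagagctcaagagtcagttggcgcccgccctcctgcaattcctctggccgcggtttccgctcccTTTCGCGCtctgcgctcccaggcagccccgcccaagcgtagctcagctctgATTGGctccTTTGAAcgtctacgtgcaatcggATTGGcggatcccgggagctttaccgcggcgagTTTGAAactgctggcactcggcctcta
Ccnb2: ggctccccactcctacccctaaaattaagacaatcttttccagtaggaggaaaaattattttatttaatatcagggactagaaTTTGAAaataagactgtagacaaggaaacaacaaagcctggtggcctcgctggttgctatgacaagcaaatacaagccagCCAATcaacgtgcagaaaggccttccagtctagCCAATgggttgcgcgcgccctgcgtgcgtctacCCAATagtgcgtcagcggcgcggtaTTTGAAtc
Ccnb1: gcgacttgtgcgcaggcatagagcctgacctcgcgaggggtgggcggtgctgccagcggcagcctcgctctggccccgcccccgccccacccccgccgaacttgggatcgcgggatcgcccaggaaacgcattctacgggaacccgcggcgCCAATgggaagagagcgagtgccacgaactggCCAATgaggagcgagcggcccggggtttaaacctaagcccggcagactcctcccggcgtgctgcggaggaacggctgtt
Cdk2: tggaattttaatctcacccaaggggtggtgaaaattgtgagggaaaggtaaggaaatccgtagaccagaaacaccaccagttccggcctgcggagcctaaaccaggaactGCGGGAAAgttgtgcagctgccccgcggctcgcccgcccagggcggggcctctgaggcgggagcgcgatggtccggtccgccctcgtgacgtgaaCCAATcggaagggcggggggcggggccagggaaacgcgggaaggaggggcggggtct
The Cdk1 window held 2 CHR matches, 3 CCAAT boxes and 1 E2F match, and the Ccnb2 window 2 CHR matches, 3 CCAAT boxes and 0 E2F matches. In Cdk1 the CHR match nearest the start began at base -15, and in Ccnb2 at base 5, counted from the start. The Ccnb1 window had 2 CCAAT boxes and the Cdk2 window 1 CCAAT box and 1 E2F match, both without a CHR match. The Ccne1 window and the first of 2 Ccnd3 windows held none of the 3 elements, and the second Ccnd3 window had 1 CCAAT box. Of 32851 mouse promoter windows of this length, 17.9% held the CHR letters, 37.4% a CCAAT box and 1.84% an E2F match. A match describes letters only, and a window without one says nothing about whether a factor binds. No window was at hand for Ccna2, and a link between these elements and the changes in CPM was not tested.

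The members differed in how they stood in sham against naive ventricles. Ccna2, Ccnb2 and Cdk1 rose in sham ventricles to about the same extent, a fitted fold of 4.95, 4.84 and 4.98. The D-type cyclins and Cdk2 did not pass the test, with fitted folds of 0.92 to 1.07. Ccne1 rose 1.53-fold near the limit of the test, Ccne2 was lower, and Ccnb1 was too low to be tested. Of the 9 members tested, 4 were called higher and 1 lower, against 17.2% and 15.5% of all genes. In Ccna2, Ccnb2 and Cdk1 all sham libraries lay above all naive ones, as in 13.6% of tested genes, and in Ccne2 all lay below, as in 9.18%.

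**Figure D1:**
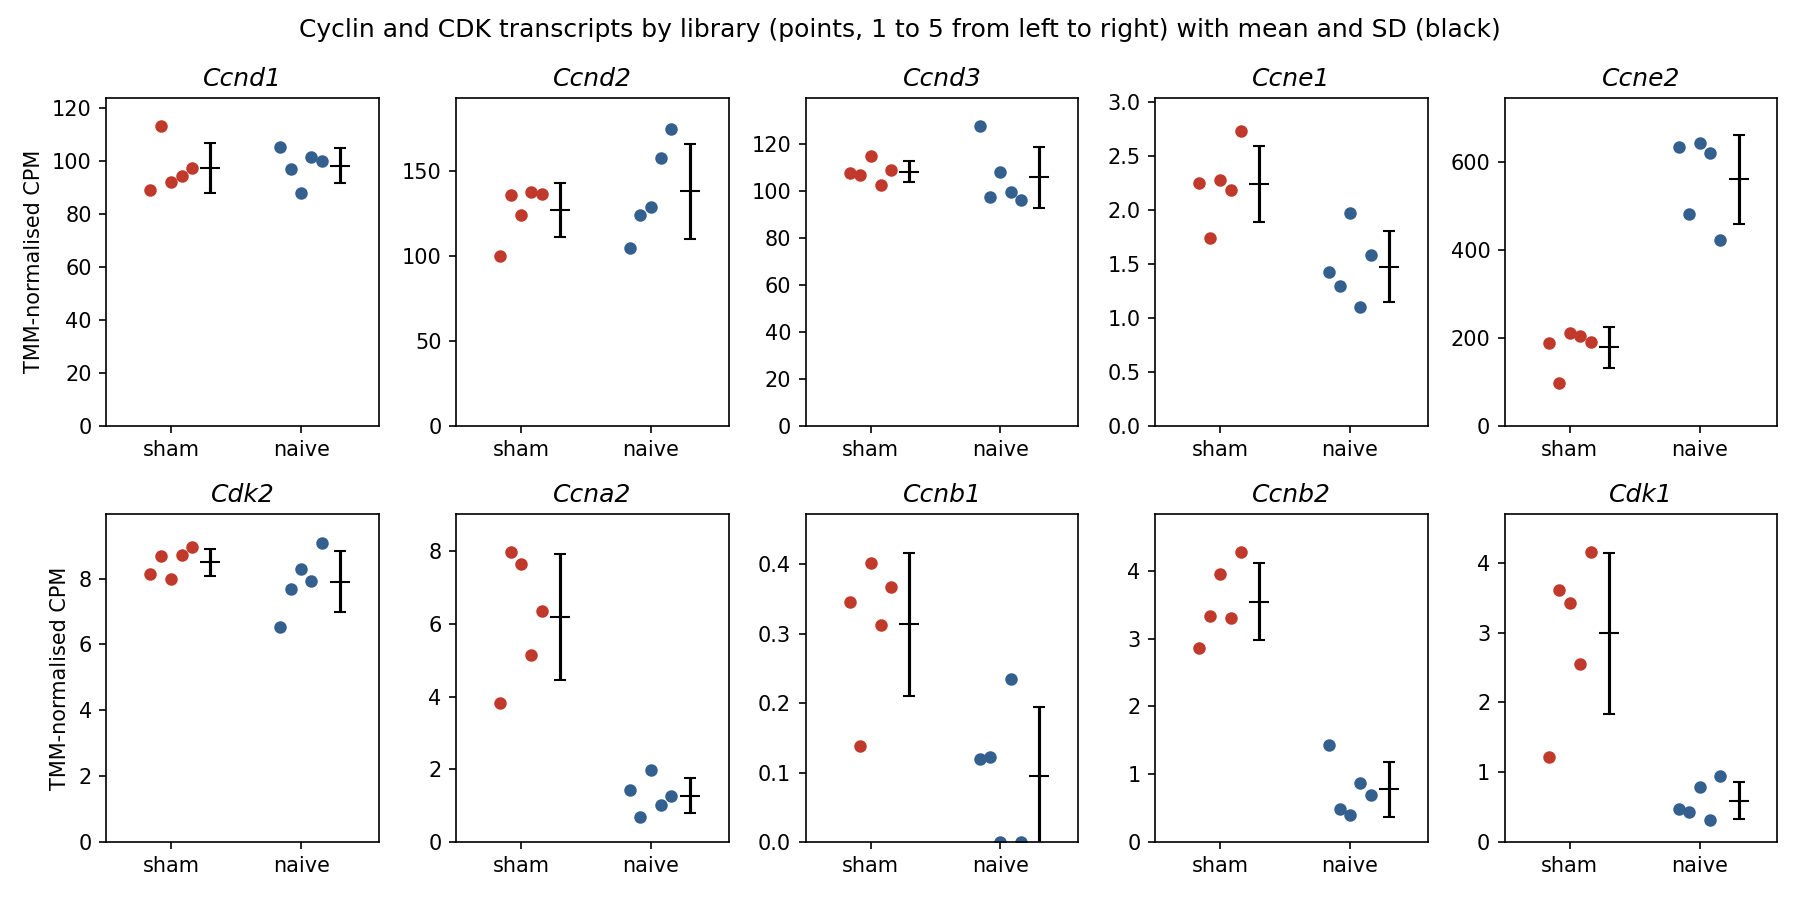
Normalised CPM of each member (vertical axes, linear from 0) in the 5 sham and the 5 naive libraries; points are libraries and black marks the mean with its SD, whose lower end for Ccnb1 in naive libraries lies below 0. Ccna2, Ccnb2 and Cdk1 have all sham libraries above all naive libraries, Ccne2 has them all below, and the D-type cyclins and Cdk2 overlap.

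Cyclin D1 (Ccnd1, chromosome 7, 144929931 to 144939925, minus strand of GRCm38), which couples growth signals to Cdk4 and Cdk6, stood at 88.9, 113, 91.9, 94.3 and 97.3 CPM in sham libraries 1 to 5 and at 105, 96.8, 87.6, 101 and 99.9 CPM in naive libraries 1 to 5. The groups overlapped almost fully, with the lowest library among the naive and the highest among the sham. Its log2 fold change was -0.01 ± 0.08 (SE, n = 5 each, adjusted p = 0.915 in edgeR's quasi-likelihood test), with a 95% interval of -0.19 to 0.17. Of its exon bases, 23.4% overlap a gene on the same locus that the annotation names LTO1 and the table Oraov1. Reads there cannot be assigned by strand, and Oraov1 itself was at 14.6 ± 2.69 CPM in sham and 15.4 ± 1.18 CPM in naive libraries.

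Cyclin D2 (Ccnd2, chromosome 6, 127125162 to 127152193, minus strand) had 100.4, 136, 124, 138 and 137 CPM in sham libraries and 105, 124, 129, 158 and 175 CPM in naive libraries. Sham 1 and naive 1 were the lowest of their groups, and naive 4 and 5 lay above every sham library. Its log2 fold change was -0.12 ± 0.13 (interval -0.40 to 0.15, edgeR adjusted p = 0.509). Cyclin D3 (Ccnd3, chromosome 17, 47505051 to 47599691, plus strand) had 108, 107, 115, 103 and 109 CPM in sham libraries and 128, 97.6, 108, 99.6 and 96.3 CPM in naive libraries. The sham libraries lay inside the naive range, and the log2 fold change was 0.03 ± 0.09 (interval -0.15 to 0.22, edgeR adjusted p = 0.797). The 3 intervals, whose highest end is 0.22, lie below those of Ccna2, Ccnb2 and Cdk1, whose lowest end is 1.56. Scaled by library size alone, Ccnd1 and Ccnd3 passed as higher (log2 fold changes of 0.25 and 0.31, adjusted p = 0.0485 and 0.0113), close to the 0.22 by which the median of all genes then stood above 0.

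Per kilobase of exon, Ccnd1 had the highest level of the D-type cyclins, 20.6 ± 2.02 CPM per kb in sham and 20.8 ± 1.40 in naive libraries. Ccnd2 followed at 13.5 ± 1.69 and 14.7 ± 2.99 CPM per kb and Ccnd3 at 12.3 ± 0.511 and 12.1 ± 1.49, where the mean of Ccnd3 lay within 1 SD of Ccnd2 but not the reverse. Of D-type cyclin RNA per exon base, Ccnd1 made up 44.3% ± 1.98 in sham and 43.8% ± 2.24 in naive libraries, Ccnd2 29.0% ± 2.33 and 30.8% ± 5.08, and Ccnd3 26.7% ± 2.25 and 25.4% ± 3.54 (SD, n = 5). This order and these shares depend on joined exon lengths of 4709 bases for Ccnd1, 9409 for Ccnd2 and 8775 for Ccnd3. Before division by length, Ccnd1 had the lowest mean, 97.1 CPM in sham and 98.1 CPM in naive libraries. Ccnd2 then had 127 and 138 CPM, and Ccnd3 108 and 106 CPM. The log2 ratio within a library, which does not depend on scaling, differed between groups by 0.09 for Ccnd1 over Ccnd2, by -0.06 for Ccnd1 over Ccnd3 and by -0.15 for Ccnd2 over Ccnd3. None of these differences passed (exact two-sided permutation p = 0.587, 0.595 and 0.540, each 0.595 after adjustment over 6 member pairs).

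Cyclin E1 (Ccne1, chromosome 7, 38097984 to 38107534, minus strand), which activates Cdk2 at the G1 to S transition, had 2.25, 1.74, 2.28, 2.19 and 2.73 CPM in sham libraries and 1.43, 1.29, 1.98, 1.10 and 1.58 CPM in naive libraries. All sham libraries except sham 2 lay above the highest naive library, naive 3. The log2 fold change was 0.61 ± 0.22 (edgeR adjusted p = 0.0446), and 11 of 24 other settings called it, with adjusted p from 0.00671 to 0.125. Leaving out 1 library ended the call for every library but naive 3 and sham 2 (adjusted p from 0.0509 to 0.117).

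Its kinase Cdk2 (chromosome 10, 128697939 to 128705031, minus strand) had 8.14, 8.68, 7.98, 8.70 and 8.97 CPM in sham libraries and 6.54, 7.69, 8.30, 7.92 and 9.09 CPM in naive libraries. The sham libraries lay within the naive range. The log2 fold change was 0.10 ± 0.12 (interval -0.15 to 0.35, edgeR adjusted p = 0.559), and with library size alone it passed at 0.36 (adjusted p = 0.0455). The log2 ratio of Ccne1 to Cdk2 was -1.92 ± 0.233 in sham and -2.41 ± 0.309 in naive libraries, a difference of 0.49 that did not pass after adjustment (exact permutation p = 0.0317, adjusted 0.0952).

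Cyclin E2 (Ccne2, chromosome 4, 11191351 to 11204779, plus strand) stood apart in level and in direction. It had 189, 96.4, 211, 204 and 191 CPM in sham libraries and 633, 482, 644, 621 and 422 CPM in naive libraries, with every sham library below every naive one and sham 2 lowest. The log2 fold change was -1.65 ± 0.19 (edgeR adjusted p = 1.96e-05), and -1.87 to -1.38 over 24 other settings, all past the threshold. Per kilobase of exon it stood at 51.0 ± 13.4 CPM in sham and 160 ± 29.1 CPM in naive libraries, above Ccnd1 and far above Ccne1 at 0.840 ± 0.133 and 0.554 ± 0.124.

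The Ccne2 count is uncertain as a measure of cyclin E2 RNA. Its exons share 17.4% of their bases with Ints8, a gene for a subunit of the integrator complex. Ints8 itself had 6.80 ± 1.47 CPM in sham and 6.78 ± 1.02 CPM in naive libraries (log2 fold change -0.01 ± 0.16, edgeR adjusted p = 0.984). Other very abundant features that moved with it, chosen after their values were seen, were Gm14236 at 13938 ± 3380 CPM in sham and 33503 ± 11774 CPM in naive libraries, and Gm23935 at 13837 ± 5270 and 46624 ± 9836 CPM. Gm14236 had a log2 fold change of -1.27 ± 0.24 (edgeR adjusted p = 0.00131) and Gm23935 one of -1.75 ± 0.26 (adjusted p = 3.04e-04). Pnck, at 5484 ± 1060 CPM in sham and 15050 ± 6996 CPM in naive libraries, was also lower (-1.46 ± 0.31, adjusted p = 0.00511), although its groups overlapped. The more abundant Gm42418, at 37824 ± 28233 CPM in sham and 72949 ± 25449 CPM in naive libraries, did not pass (-0.95 ± 0.47, adjusted p = 0.165). Of the 50-base windows of Ccne2 transcripts, 14.4% also occur in transcripts of Ints8 and none in those of any other gene, the abundant features named here included. That search covers identical windows only. The part of these features in the Ccne2 count was not tested.

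Cyclin A2 (Ccna2, chromosome 3, 36564865 to 36572150, minus strand), which partners Cdk2 and then Cdk1, had 3.81, 7.98, 7.65, 5.13 and 6.36 CPM in sham libraries and 1.43, 0.677, 1.98, 1.02 and 1.26 CPM in naive libraries. The lowest sham library, sham 1, lay well above the highest naive library, naive 3. The log2 fold change was 2.31 ± 0.27 (edgeR adjusted p = 7.66e-06). The raw reads were 44, 115, 114, 115 and 156 in sham and 12, 11, 25, 13 and 20 in naive libraries. Its exons share 12.5% of their bases with Exosc9, an exosome subunit gene at 3.70 ± 0.423 CPM in sham and 3.20 ± 0.778 CPM in naive libraries, which did not pass the test (log2 fold change 0.19 ± 0.19).

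Cyclin B2 (Ccnb2, chromosome 9, 70407692 to 70421547, minus strand), a mitotic partner of Cdk1, had 2.86, 3.33, 3.96, 3.30 and 4.28 CPM in sham libraries and 1.43, 0.492, 0.395, 0.862 and 0.695 CPM in naive libraries. The lowest sham library, sham 1, lay well above the highest naive one, naive 1. The log2 fold change was 2.28 ± 0.28 (edgeR adjusted p = 1.28e-05). The raw reads were 33, 48, 59, 74 and 105 in sham and 12, 8, 5, 11 and 11 in naive libraries. No 50-base window of its transcripts, nor of those of Cdk1 and Ccne1, occurs unchanged in a transcript of another gene. The pseudogene Ccnb2-ps had 41 reads in all sham and 35 in all naive libraries, at 0.505 ± 0.183 and 0.529 ± 0.434 CPM. It was too low to be tested. Whether reads passed between Ccnb2 and Ccnb2-ps through near matches was not tested.

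The mitotic kinase Cdk1 (chromosome 10, 69335146 to 69352938, minus strand) had 1.21, 3.61, 3.42, 2.54 and 4.16 CPM in sham libraries and 0.476, 0.431, 0.790, 0.314 and 0.947 CPM in naive libraries. Sham 1 lay just above naive 5, the highest naive library, and the other sham libraries lay well above. The log2 fold change was 2.32 ± 0.36 (edgeR adjusted p = 1.22e-04), and 2.49 without sham 1. The naive values rest on 4 to 15 reads a library and the sham values on 14 to 102. Ccnb2 and Cdk1 passed the count filter through the sham libraries, since 2 of 5 naive libraries reached it for each, and 4 of 5 for Ccna2. Without a filter the log2 fold changes were 2.34 for Ccna2, 2.31 for Ccnb2 and 2.35 for Cdk1.

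Cdk1 and Cdk2, members chosen with earlier results of these data known, were also compared within each library. The log2 ratio of Cdk1 to Cdk2 was -1.61 ± 0.663 in sham and -3.75 ± 0.531 in naive libraries (SD, n = 5), higher in every sham library than in every naive one. The difference of 2.14 had an exact two-sided permutation p of 0.00794, the smallest that 5 against 5 libraries allow, and an adjusted p of 0.0476 over 6 pairs. Leaving out any 1 naive library gave differences of 1.95 to 2.27 with adjusted p of 0.0714 to 0.0952.

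**Figure D2:**
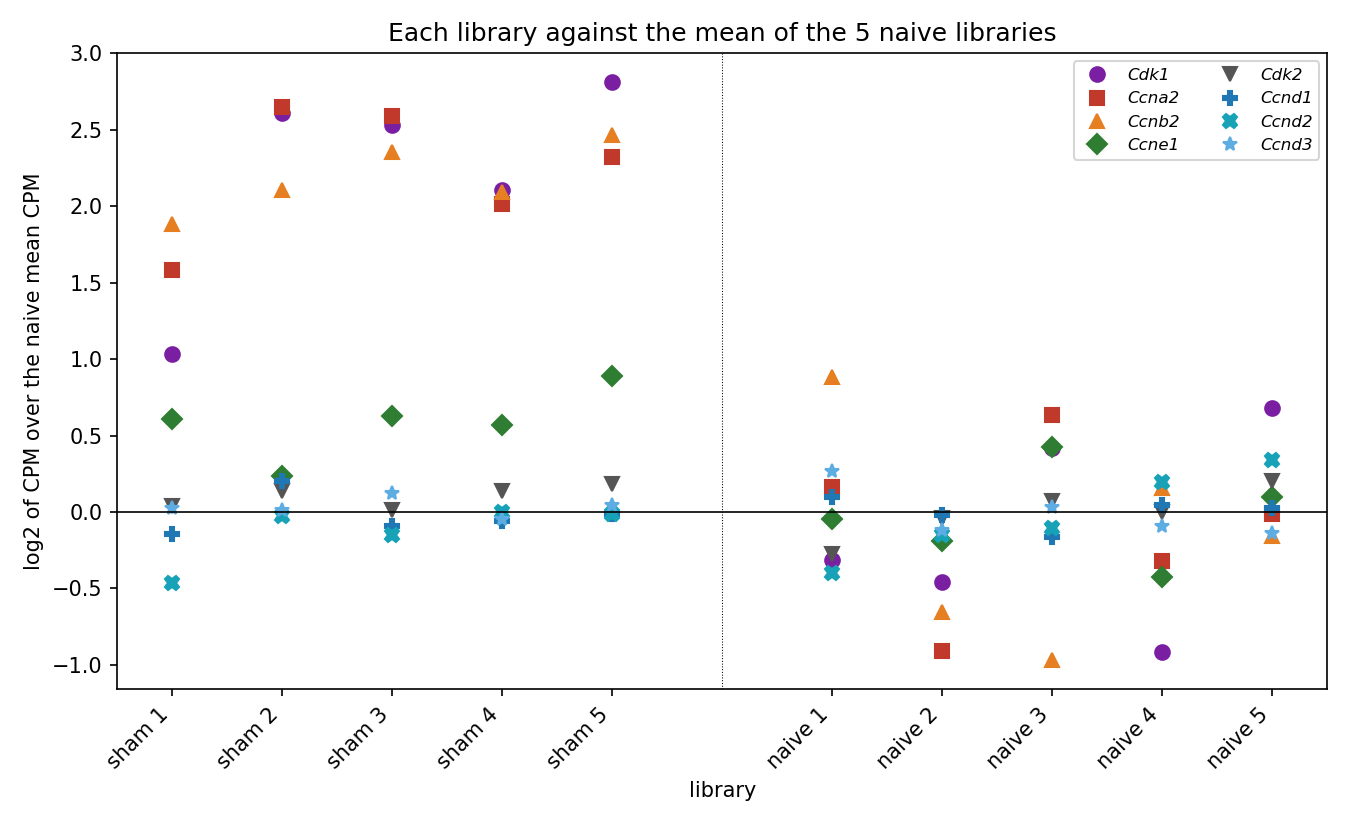
Log2 of each library's CPM over the mean CPM of the 5 naive libraries (vertical axis) for 8 members, with sham libraries on the left and naive libraries on the right. In sham libraries Cdk1, Ccna2 and Ccnb2 lie between 2.05 and 7.03 times the naive mean, and the D-type cyclins and Cdk2 lie near it.

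The sham libraries differed among themselves in these 3 genes. Sham 1 was the lowest in each, at 2.05 times the naive mean for Cdk1, 3.00 times for Ccna2 and 3.69 times for Ccnb2. Sham 5 was highest for Cdk1 and Ccnb2, at 7.03 and 5.53 times, and sham 2 for Ccna2, at 6.28 times. The summed CPM of 23 other mitosis genes was also lowest in sham 1, at 108 against 129 to 154 in the other sham libraries and 63.6 to 71.2 in naive libraries.

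Cyclin B1 (Ccnb1, chromosome 13, 100778650 to 100786570, minus strand), the other mitotic partner of Cdk1, had 4, 2, 6, 7 and 9 reads in sham libraries and 1, 2, 0, 3 and 0 reads in naive libraries. No library reached the filter, and every naive library was at or under 3 reads. Fitted without a filter, its log2 fold change was 1.72 ± 0.77 and did not pass (edgeR adjusted p = 0.137). Of the 50-base windows of its transcripts, 23.4% also occur in transcripts of other genes, all of them pseudogenes, among them Ccnb1-ps with 18.9% and Gm12856 with 13.4%. Ccnb1-ps was listed at 0 reads in every library and Gm12856 at 1 read in total. The sources used here do not state how reads matching several genes were counted, so the level of Ccnb1 is uncertain. The log2 ratio of Ccnb1 to Ccnb2 differed by -0.53 (exact permutation p = 0.405, adjusted 0.595) with 0.5 reads added and by -1.21 (exact permutation p = 0.0159, adjusted 0.0476) with 2 reads added, so these counts do not fix it.

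Per kilobase of exon, the members ranked in sham libraries from Ccne2 through Ccnd1, Ccnd2, Ccnd3, Ccnb2, Ccna2, Cdk2, Ccne1 and Cdk1 to Ccnb1. In naive libraries Cdk2, at 1.27 ± 0.15 CPM per kb, stood above Ccne1 at 0.554 ± 0.124, Ccnb2 at 0.506 ± 0.266, Ccna2 at 0.312 ± 0.119 and Cdk1 at 0.120 ± 0.0538. In sham libraries Ccnb2 stood at 2.32 ± 0.370, Ccna2 at 1.52 ± 0.427, Cdk2 at 1.37 ± 0.0666, Ccne1 at 0.840 ± 0.133 and Cdk1 at 0.606 ± 0.233 CPM per kb. In sham libraries the mean of Cdk2 lay within 1 SD of Ccna2, but not the reverse, and in naive libraries Ccne1 and Ccnb2 lay within 1 SD of each other. The lengths are of all annotated exons joined, so genes with long unused exons are understated.

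Among 18 other cyclins, 15 were tested, and 3 were higher, 2 lower and 10 not past the threshold (median log2 fold change -0.08). These counts are near the shares of all tested genes, 17.2% higher and 15.5% lower, against which the lists below are also read. Cyclin F (Ccnf), which peaks in G2 and recruits targets to an SCF ubiquitin ligase, rose to 4.30 CPM in sham libraries, against 1.25 CPM in naive libraries (log2 fold change 1.79 ± 0.20, edgeR adjusted p = 4.21e-06). The splicing-linked cyclins Ccnl1 and Ccnl2 rose by 0.33 ± 0.10 and 0.23 ± 0.07 on the log2 scale. Ccng1, a p53 target, changed by -0.52 ± 0.12 and Ccny by -0.42 ± 0.10, and with library size alone neither passed (-0.25 and -0.15). Transcriptional cyclins such as Ccnc, Ccnh, Ccnk, Ccnt1 and Ccnt2 did not pass, with log2 fold changes of -0.13 to 0.06.

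Of 17 other CDKs, 16 were tested (median 0.04). Of these, 5 were higher and 1 lower, against 17.2% and 15.5% of all tested genes, and 10 did not pass. The kinase partners of the D-type cyclins were among the higher ones. Cdk4 stood at 54.1 CPM in sham and 38.6 CPM in naive libraries (log2 fold change 0.49 ± 0.09, edgeR adjusted p = 4.72e-04) and Cdk6 at 9.20 and 6.30 CPM (0.54 ± 0.13, adjusted p = 0.00593), and for both genes the lowest sham library exceeded the highest naive one. That held for 3 of the 16 other CDKs tested, Cdk9 being the third, near the 13.6% of all genes. Cdk9, the kinase of transcription elongation, rose by 0.36 ± 0.10, Cdk14 by 0.50 ± 0.16 and Cdk20 by 0.39 ± 0.14. Cdk18 was lower, at -0.43 ± 0.08 on the log2 scale, and did not pass with library size alone (-0.16).

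**Figure D3:**
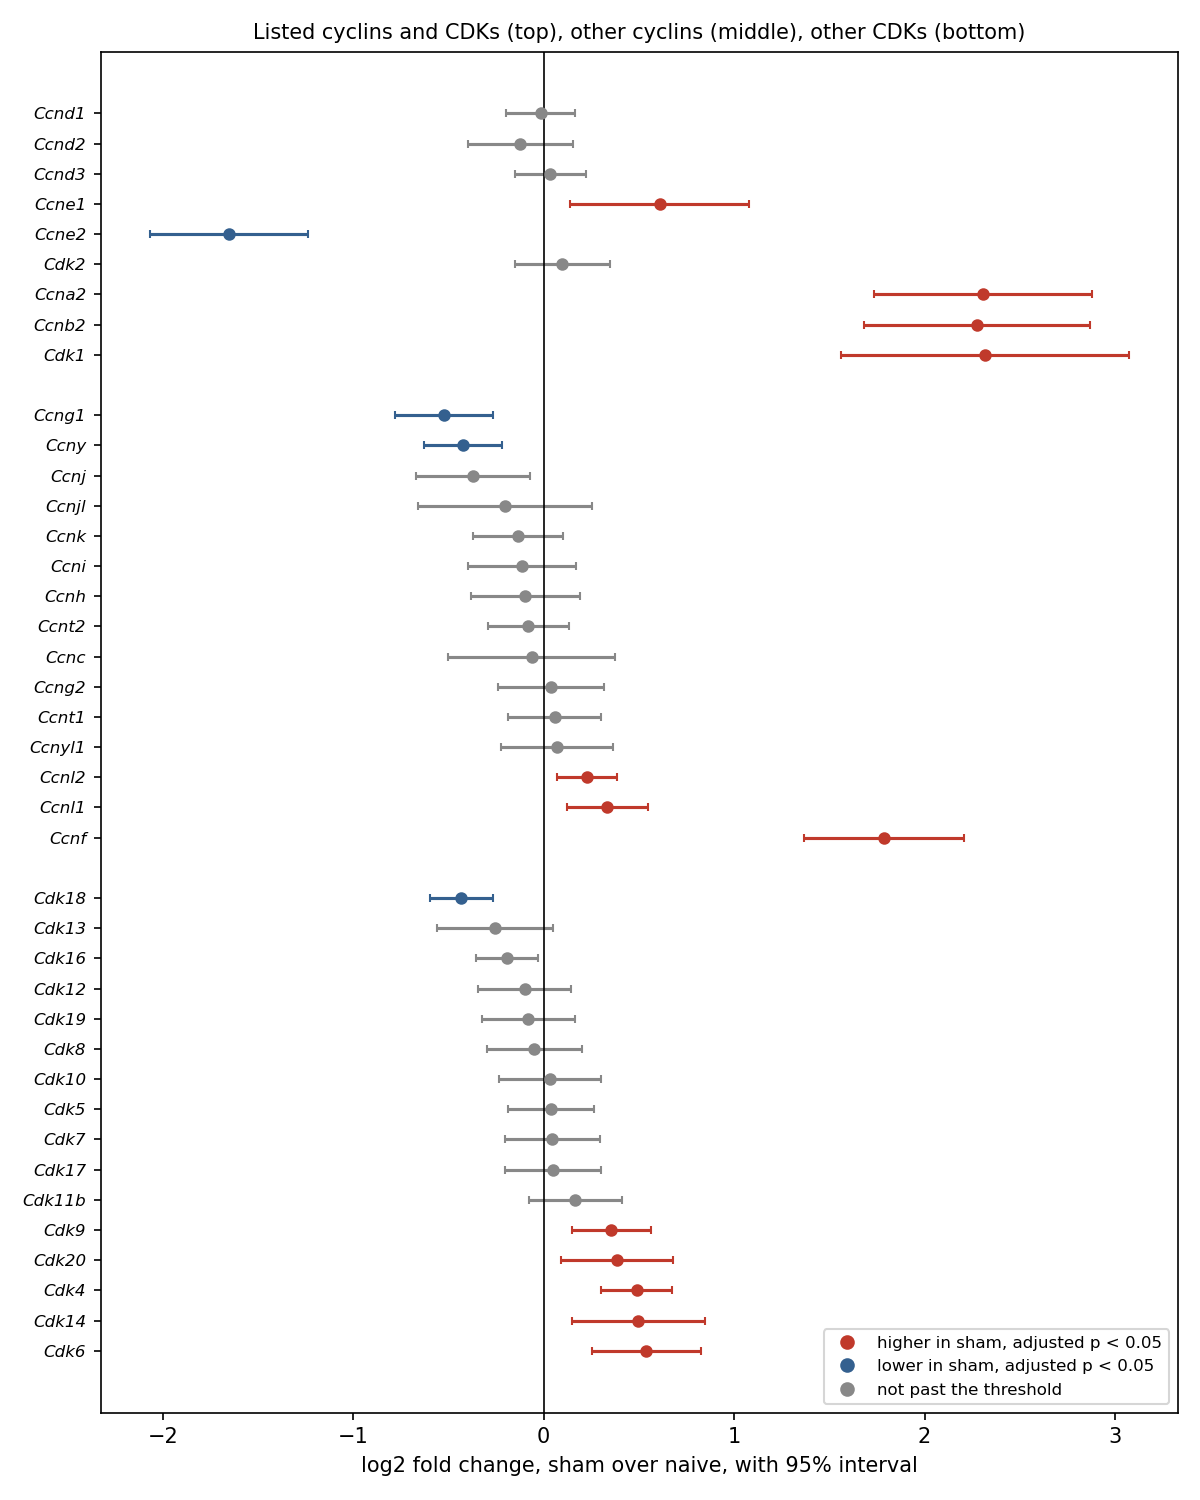
Log2 fold changes of sham over naive libraries (horizontal axis) with 95% intervals for the 9 members tested, 15 other cyclins and 16 other CDKs; colour marks the call. Cdk1, Ccna2, Ccnb2 and, among the other cyclins, Ccnf lie to the right of all others, and Ccne2 to the left.

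Enzymes and subunits that act directly on CDKs came next. This list of 14 genes holds activators and cofactors and also inhibitory enzymes such as Wee1 and Pkmyt1. Of these, 11 were tested, and 7 were higher, 1 lower and 3 not past (median 0.98, against -0.05 for all genes). Plk1, which promotes Cdk1 activation, rose by 2.68 ± 0.21, the phosphatase Cdc25b by 1.19 ± 0.13 and the CDK-binding subunit Cks2 by 2.41 ± 0.38. The kinases that inhibit Cdk1 split: Pkmyt1, 1 of the 7 higher, rose by 0.98 ± 0.14, to 10.9 CPM in sham against 5.48 CPM in naive libraries. Wee1, the 1 lower, changed by -0.96 ± 0.16 (edgeR adjusted p = 2.35e-04), to 9.61 CPM in sham against 18.7 CPM in naive libraries, and stayed lower with library size alone (-0.68, adjusted p = 0.00265).

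All 7 CDK inhibitors were tested (median 0.40). Of the 7, 4 were higher and 1 lower, against 17.2% and 15.5% of all tested genes, and 2 did not pass. Cdkn1a (p21) stood at 80.0 CPM in sham and 47.3 CPM in naive libraries (0.76 ± 0.13, edgeR adjusted p = 3.94e-04). Cdkn2b (p15) and Cdkn2c (p18), which block Cdk4 and Cdk6, rose by 1.41 ± 0.29 and 0.40 ± 0.12, and Cdkn2a by 0.95 ± 0.34. Cdkn1c (p57) changed by -0.59 ± 0.13. Cdkn1b (p27), the inhibitor of resting cells, was at -0.10 and did not pass.

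Among 21 pocket proteins, E2F and MuvB-linked factors, 20 were tested (median -0.02). Of these, 8 were higher and 2 lower, against 17.2% and 15.5% of all tested genes, and 10 did not pass. Foxm1, an activator of G2 and mitotic genes, rose by 2.26 ± 0.22, E2f1 by 1.71 ± 0.23, E2f2 by 1.41 ± 0.21 and the repressor E2f8 by 1.07 ± 0.19. The 2 lower ones were the repressor E2f6 at -0.51 ± 0.10 and the pocket protein Rbl2, which holds genes silent in resting cells, at -0.47 ± 0.10, and neither passed with library size alone. Rb1 was at -0.06 and did not pass.

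Of 25 genes for cyclin destruction, 24 were tested, and 4 were higher, 2 lower and 18 not past (median 0.00). These counts are near or below the shares of all tested genes, 17.2% higher and 15.5% lower. The higher ones were the ubiquitin-conjugating enzyme Ube2c at 2.47 ± 0.21, the activator Cdc20 at 2.19 ± 0.21, the inhibitor Fbxo5 at 1.17 ± 0.36 and Skp2 at 0.81 ± 0.28. Cul4a and Fbxo31, which acts on cyclin D1, were at -0.38 ± 0.08 and -0.42 ± 0.11, and neither passed with library size alone. The 11 core subunits of the anaphase-promoting complex tested did not pass.

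S phase targets rose in 15 of 19 tested genes of 21 listed, with 0 lower and 4 not past (median 0.95). The helicase subunit Mcm5 rose by 1.85 ± 0.14, Mcm6 by 1.20 ± 0.13, Uhrf1 by 2.13 ± 0.19 and Gins2 by 2.30 ± 0.25. Mitosis genes rose in 19 of 21 tested genes of 23 listed, with 1 lower and 1 not past (median 2.08). Top2a rose by 2.40 ± 0.21, Birc5 by 2.81 ± 0.28, Aurkb by 2.47 ± 0.24, its partner Incenp by 1.51 ± 0.16 and the proliferation marker Mki67 by 2.1 ± 0.29. The 1 lower was the centromere histone Cenpa at -0.25 ± 0.09 (edgeR adjusted p = 0.0447), which did not pass with library size alone (0.02).

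**Figure D4:**
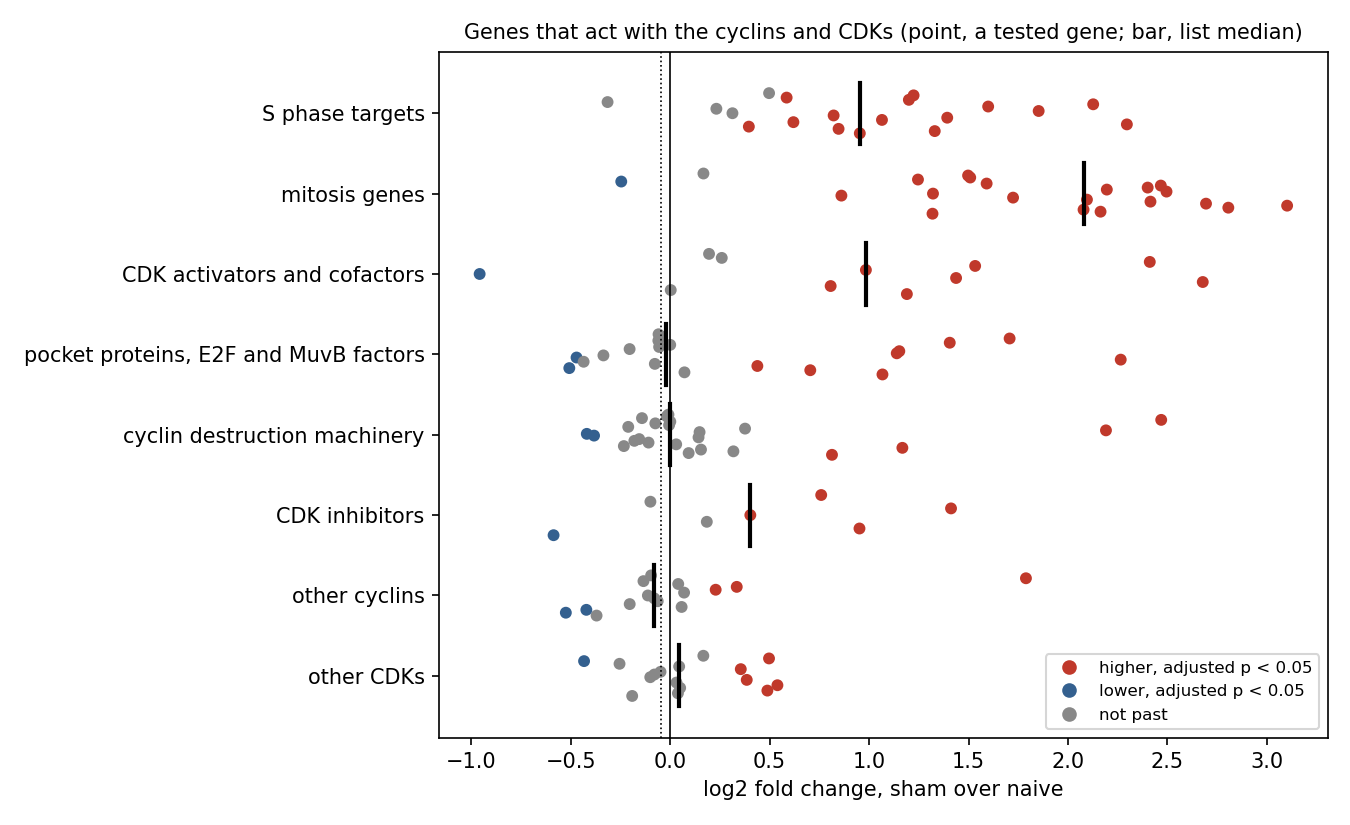
Log2 fold changes of sham over naive libraries (horizontal axis) for the tested genes of 8 lists of genes that act with the cyclins and CDKs (the activator list includes inhibitory kinases); points are genes coloured by call, bars are list medians and the dotted line is the median of all tested genes. S phase and mitosis genes lie mostly to the right of 0, whereas the other cyclins and CDKs centre near it.

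Markers of cell types moved with the groups too. In ventricle tissue, a change in the number of cells of a type and a change in RNA per cell cannot be told apart. All 15 macrophage and monocyte markers tested of 16 were higher, with summed levels of 1431 to 1762 CPM in sham and 461 to 554 CPM in naive libraries. Macrophage calls were the same in number with library size alone. Fibroblast markers were higher in 8 of 10 (9 with library size alone), at 11596 to 21167 CPM in sham and 1146 to 1646 CPM in naive libraries, mostly from Col1a1 and Col3a1. Sham 1 was the lowest sham library in the macrophage sum, and sham 4 in the fibroblast sum.

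By fold, the marker sums of the other cell types moved less than those of macrophages and fibroblasts, or lay at low levels. Endothelial markers were higher in 1 of 10 and lower in 4, against 17.2% and 15.5% of all tested genes. Their sums were 1568 to 1711 CPM in sham and 1700.2 to 1924 CPM in naive libraries. With library size alone 3 endothelial markers were higher and 0 lower, so the balance of calls turned. Heart muscle markers were lower in 10 of 12, but in 2 of 12 with library size alone, at 76841 to 88665 CPM in sham and 105603 to 107423 CPM in naive libraries. Pericyte and smooth muscle markers were higher in 1 of 8 and lower in 1 (4 and 0 with library size alone), at 656 to 844 CPM in sham and 598 to 764 CPM in naive libraries. Mesothelial cells line the outer surface of the heart. Their markers were lower in 3 of 6 (2 with library size alone), at 19.6 to 32.1 CPM in sham and 39.5 to 59.8 CPM in naive libraries. Of 7 neutrophil markers 2 were tested and both were higher, at 14.7 to 33.7 CPM in sham and 1.98 to 4.92 CPM in naive libraries. Of 10 lymphocyte markers 2 were tested and 1 was higher, at 5.28 to 6.16 CPM in sham and 2.83 to 4.80 CPM in naive libraries. Of 7 erythroid markers 5 were tested and 0 passed, at 68.6 to 293 CPM in sham and 44.6 to 360 CPM in naive libraries. No listed marker was at 0 in all libraries. The part of any of these cell types in the levels of Ccna2, Ccnb2 and Cdk1 was not tested.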

How the data were processed

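RNA from 10 ventricle samples had been sequenced, 5 from sham mice and 5 from naive mice, and the values used are the raw gene counts deposited by the authors, with the percentage of GC per gene that stands in the authors' table. Bowtie2, TopHat2 2.1.1, TopHat, HTSeq, DESeq and edgeR are named with build GRCm38, without roles, per the submitters' processing notes. Of 41264 rows, 574 repeats of an Ensembl gene were collapsed. Counts were tested with edgeR 4.0.16 (R 4.3.3; TMM factors, filterByExpr with a minimum count of 10 and a minimum total of 15, robust quasi-likelihood F test) over 13622 genes, with Benjamini-Hochberg adjusted p under 0.05 as the threshold.

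CPM were taken with TMM-scaled library sizes. Levels per kilobase used the joined exons of the GENCODE annotation, and a window was counted as shared when its 50 bases occur in a transcript of another gene. Ratios between members used 0.5 added reads and exact permutation of libraries. Libraries of 1 group differed beyond counting noise (chi-square per degree of freedom of 10.1 or more, highest for sham 4). The labels do not say whether the mice of a group came from separate litters or days, and the p-values cover no more than the variation among the libraries at hand. Alternatives were DESeq2 1.42.0, limma 3.58.1, other scalings, filters, GC correction, a replicate block and leaving out libraries. The procedure was tested on simulated data with far fewer changed genes than were called here, so that test does not address the choice of scaling. Named genes were all members, up to 4 genes of smallest p in each list, those called against the direction of most of their list, Ints8, Mki67, the 5 genes nearest to Cdk1 and to Ccnd1, and up to 3 abundant genes of a marker list; other listed genes and neighbours in the text were chosen after their values were seen. The members and lists were chosen with earlier results of these data known.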

Additional observations from a re-analysis of the deposited data

Results flagged for a closer look

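Of 32 groups of 5 libraries checked (the members' CPM and the ratios of paired members), 1 had a library far from the others, where chance gives about 1 in 20. In the sham group, Ccne2 in sham 2 stood at 96.4 CPM, below the other 4 sham libraries at 189 to 211 CPM, and the naive libraries had 422 to 644 CPM. Without sham 2 the log2 fold change of Ccne2 was -1.47, against -1.65 with it.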

How the results depend on the processing

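Ccna2, Ccnb2, Cdk1 and Ccne2 kept direction and call under all 24 other settings. Ccnd1, near 0, changed sign with upper quartile factors (0.00287), scaling by size alone (0.25, the 1 setting in which it passed, adjusted p = 0.0485), no filter (0.0148), voom (0.0853), without naive 1 and sham 4 (0.0484) and without sham 1 and naive 1 (0.0378, a pair chosen after the data were seen), and ran from -0.0567 to 0.0270 with 1 library left out. With library size alone Ccnd2 stood at 0.14, Ccnd3 at 0.31 and Cdk2 at 0.36, and 7 members were called higher. Leaving out 1 library gave 3 to 4 higher members and -0.000227 to 0.106 for Ccnd3, which stood at 0.156 without naive 1 and sham 4. Ccne1 lost its call with DESeq2 (0.62), no filter (0.64), voom (0.48), without naive 1 and sham 4 (0.64) and without sham 1 and naive 1 (0.60), and ran from 0.52 to 0.73 with 1 library left out.

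Among other cyclins library size alone gave 0 lower, and leaving out 1 library gave 1 to 3 higher. Lower CDKs numbered 2 with DESeq2, voom and GC correction, 3 with a replicate block with or without GC correction, 0 with library size alone and 1 to 2 with 1 library left out. Higher CDKs numbered 3 without sham 1 and naive 1 and 3 to 5 with 1 left out. Leaving out 1 library gave 2 to 4 higher CDK inhibitors and 2 to 4 higher destruction genes. Library size alone gave 13 higher and 0 lower destruction genes and 0 lower E2F and pocket factors. Mitosis genes had 0 lower with RLE factors, upper quartile factors, size alone, without a filter and with both left-out pairs, and 0 to 1 with 1 left out. The cause of these moves was not tested.

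The Ccnb1 to Ccnb2 ratio difference was -1.21 with 2 added reads. The Cdk1 to Cdk2 difference ran from 1.95 to 2.41 with 1 library left out. With libraries paired by replicate number it was 2.14 with an exact adjusted p of 0.188, where sign flips of 5 pairs cannot go below 0.0625. Same-numbered libraries deviated together in only part of the pairs (correlations of 0.0080 to 0.293, 3 of 5 libraries best with their own number), so a pairing is not established. The replicate block called 2592 genes higher and 2801 lower, and gave Ccne1 0.61 (adjusted p = 0.0454). Depth limits Ccnb1, with 6 naive reads in all, and the naive levels of Cdk1, with 40, and Ccnb2, with 47.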

Other observations

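The genes whose log2 CPM profile over the 10 libraries, centred on the gene's own mean, lay nearest to that of Cdk1 were Spag5, Melk, Oas1a, Ccna2 and Wisp1, at root mean square distances of 0.229 to 0.383. Spag5, a spindle protein gene, stood at 3.54 CPM in sham and 0.853 CPM in naive libraries, and the kinase gene Melk at 1.78 CPM in sham and 0.343 CPM in naive libraries. Oas1a stood at 6.16 CPM in sham and 1.30 CPM in naive libraries, and Wisp1 at 9.37 CPM in sham and 1.71 CPM in naive libraries. Nearest to Ccnd1 were Tmc8, Hdgf, Limk2, Bop1 and Txnrd1, at distances of 0.0705 to 0.0754. The distance includes the difference between the groups, so genes with a like fold change come first.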
